A study of Mus musculus with 12 samples.

Results

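The smooth muscle contractile genes described here are Acta2, Actg2, Tagln, Myh11, Cnn1, Myl9, Lmod1, Des, Smtn and Myocd. They were taken by symbol as a named set that covers the contractile filaments of smooth muscle, the proteins bound to them and their transcriptional coactivator, and all 10 were found among the 36186 genes of the deposited count table. The libraries were RNA-seq of whole mouse kidneys at embryonic day E18.5, from a mixed genetic background, with 3 libraries in each of 4 genotypes. Wt was wild type. AkCh was labelled Hoxa9,10,11-/- HoxC9,10,11+/-, so that the mutations were homozygous in the HoxA cluster and heterozygous in the HoxC cluster. AhCk was labelled Hoxa9,10,11+/- HoxC9,10,11-/-, the reverse arrangement, and AkCk was labelled Hoxa9,10,11-/- HoxC9,10,11-/-. The mutations are frameshifts placed in first exons, and the labels name no HoxD mutation. The sources differ on Hoxa11 in the double mutants: the labels give it as -/-, whereas the text of the study gives the sequenced double mutants as Hoxa11 +/- or +/+. The study also reports that no kidneys were detected at E18.5 in embryos of the labelled double homozygous genotype. The count tables cannot show which holds, so AkCk is used here as a label only and Hoxa11 is not taken to be homozygous mutant in it. The Wt, AkCh and AkCk libraries are labelled run1008 and the AhCk libraries run1646, so for AhCk the run and the genotype cannot be told apart. Total expected counts per library lay between 28616877 (AkCh_20) and 47067903 (AhCk_110), with a median of 39328488, with each library named as it is labelled. The methods of the study count controls and mutants as separate samples, the labels do not say whether each library is a separate embryo, and the p-values measure the spread between these libraries.

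Smooth muscle contracts when calcium bound to calmodulin activates myosin light chain kinase, which phosphorylates the regulatory light chain of myosin so that the motor pulls on actin filaments. Many genes of this apparatus are transcribed through serum response factor, which binds a DNA motif called the CArG box, together with its coactivator myocardin. In the kidney, smooth muscle lies in the walls of arteries and arterioles and around the renal pelvis and ureter, where peristalsis moves the urine.

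The targeted genes were read first. Hoxa10 stood at 125, 152 and 164 CPM (counts relative to the TMM-scaled total of the library) in Wt_30, Wt_37 and Wt_55, at 153, 103 and 107 CPM in AkCh_20, AkCh_31 and AkCh_33, at 113, 104 and 114 CPM in AhCk_38, AhCk_110 and AhCk_115, and at 100.2, 104 and 112 CPM in AkCk_24, AkCk_27 and AkCk_29. Hoxc10 stood at 50.2, 58.8 and 66.9 CPM in the Wt libraries, at 121, 45.3 and 41.6 CPM in AkCh, at 32.1, 36.6 and 51.6 CPM in AhCk, and at 37.8, 29.1 and 35.8 CPM in AkCk, in the same library order. All 3 AkCk libraries lay below all 3 Wt libraries for both genes. Of the 9 Hox9, Hox10 and Hox11 genes of the HoxA, HoxC and HoxD clusters, 2 fell in AkCk against Wt by edgeR's quasi-likelihood test, Hoxc10 with a log2 fold change of -0.78 (SE 0.14, adjusted p = 0.0127) and Hoxa10 with -0.49 (SE 0.11, adjusted p = 0.0270), and 7 did not pass. DESeq2 called 2 of them lower and limma 1. Of all genes tested 7.40% fell by edgeR, and in 20.8% every AkCk library lay below every Wt library. A frameshift need not remove the mRNA, so these levels do not test the labelled genotypes. For the same 9 genes edgeR and limma called 0 in AhCk against Wt, with 3 at an unadjusted p under 0.05 and 2 by DESeq2. Of all 15902 genes tested there, 3349 had an unadjusted p under 0.05. In AkCh against Wt edgeR, DESeq2 and limma called 0 of them, with 0 at an unadjusted p under 0.05, 7 of 9 log2 fold changes positive and a median of 0.21. Without AkCh_20, the library described next, edgeR called 0 too, but 2 were lower at an unadjusted p under 0.05, 8 of 9 were negative and the median was -0.15.

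The library AkCh_20 stood apart from the other 2 of its group. The chi-square per degree of freedom between its counts and those of AkCh_31 and AkCh_33 was 256.5 and 278, against 17.5 between AkCh_31 and AkCh_33, and 14.8 to 68.7 for the pairs within the other groups. In AkCh_20, 17.6% of genes differed by over 2-fold from the mean of the other 2 libraries of the group, and in the other 11 libraries this share was 0.738% to 6.14%. It had the lowest total count, and its level of the nephron progenitor gene Six2 was 164 CPM against 76.7 and 69.7 CPM in AkCh_31 and AkCh_33, while the proximal tubule gene Slc34a1 was at 83.0 CPM against 580.0 and 1068 CPM. The edgeR comparisons of the 10 contractile genes that use AkCh are therefore given with and without this library. The sex transcripts were also uneven over the groups. Xist, the RNA of the inactive X chromosome, was at most 0.138 CPM in the 3 Wt libraries, AkCh_20, AhCk_38, AhCk_115 and AkCk_24, which all held the Y-linked Ddx3y at 54.2 to 93.6 CPM. Xist was at 189.5 and 253 CPM in AkCh_31 and AkCh_33, at 336 CPM in AhCk_110, and at 72.6 and 60.1 CPM in AkCk_27 and AkCk_29, where Ddx3y was at most 0.0824 CPM. Each mutant group thus held libraries of different embryos.

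Scaled to exon length, as CPM per kilobase of exon (RPKM), the levels of the 10 genes in Wt kidneys spread widely. Acta2 (165 ± 16.0 RPKM, SD, n = 3) and Myl9 (159.5 ± 15.3 RPKM) were the highest and did not differ beyond their spread, followed by Tagln (67.0 ± 5.39 RPKM), Smtn (32.0 ± 0.686 RPKM) and Des (8.76 ± 1.10 RPKM). Below them lay Myh11 (5.36 ± 0.221 RPKM), Cnn1 (4.01 ± 0.271 RPKM), Actg2 (2.11 ± 0.0727 RPKM), Lmod1 (1.08 ± 0.0495 RPKM) and, lowest, Myocd (0.550 ± 0.0532 RPKM). The counts behind these levels set their precision: Acta2 had 10369 to 21853 rounded counts per library, Actg2 109 to 400, Lmod1 111 to 273 and Myocd 45 to 352, the 45 being in AkCh_20. Stretches of 75 bases, the read length, were compared across annotated transcripts. Of the Tagln stretches 40.9% occur in another gene too, mostly in Gm48529, of the Smtn stretches 9.54% in Gm11946 and of the Des stretches 5.01% in Gm15179, while the other 7 genes share none. Gm15179 is among the genes of the count table, and Gm48529 and Gm11946 are not. Reads that align to several places were removed and the use of strand in counting is not stated, and how far this bears on the levels of Tagln, Smtn and Des was not tested.

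In genome build mm10 (GRCm38) the genes lie on 7 chromosomes. Acta2 (Entrez 11475) is at chr19:34241090-34255590, Actg2 (11468) at chr6:83512905-83536265, Myh11 (17880) at chr16:14194535-14291372, Myl9 (98932) at chr2:156775420-156781658 and Tagln (21345) at chr9:45929619-45936058. Cnn1 (12797) is at chr9:22099216-22109630, Smtn (29856) at chr11:3517523-3540612, Lmod1 (93689) at chr1:135324807-135368065, Des (13346) at chr1:75360329-75368579 and Myocd (214384) at chr11:65176561-65269989. RefSeq promoters of GRCm38.p6, from 250 bases before to 50 bases after the transcript start that RefSeq uses, were held for 6 of the 10, namely Acta2, Cnn1, Des, Lmod1, Myl9 and Smtn, and not for Actg2, Tagln, Myh11 and Myocd. The gene bounds above are those of GENCODE M21, whose outermost start is not always the start in RefSeq, so that the Smtn window lies inside these bounds and most of the Acta2 window does too. Both strands were searched for the CArG box and for a CArG-like form in which 1 of the 6 central letters is C or G. The Myl9 window holds a CArG box 161 to 152 bases upstream of the RefSeq start and a CArG-like match at 99 to 90, the Acta2 window holds CArG-like matches at 84 to 75 and 34 to 25, and the other 4 windows hold neither. Of all 32851 promoters in the table, 1.63% hold a CArG box and 9.98% a CArG box or a CArG-like match. Shown 5′ to 3′ with the matches in capitals are the windows of the most abundant actin and myosin light chain genes of the set, Acta2 (chr19:34255324-34255623, minus strand) and Myl9 (chr2:156775214-156775513, plus strand), and of Smtn (chr11:3539243-3539542, minus strand), the gene for which the AkCk libraries lay below Wt.
Acta2: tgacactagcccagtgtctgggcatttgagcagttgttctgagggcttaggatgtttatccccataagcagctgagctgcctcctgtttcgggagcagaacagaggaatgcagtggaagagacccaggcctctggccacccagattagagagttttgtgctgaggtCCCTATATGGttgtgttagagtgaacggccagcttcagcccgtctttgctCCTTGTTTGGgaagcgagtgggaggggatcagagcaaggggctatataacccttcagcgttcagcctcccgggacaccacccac
Myl9: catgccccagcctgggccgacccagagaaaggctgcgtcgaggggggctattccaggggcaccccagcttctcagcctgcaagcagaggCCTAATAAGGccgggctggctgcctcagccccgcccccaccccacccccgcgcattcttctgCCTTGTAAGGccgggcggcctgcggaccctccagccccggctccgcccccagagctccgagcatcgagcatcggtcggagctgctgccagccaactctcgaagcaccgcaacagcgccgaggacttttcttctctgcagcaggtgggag
Smtn: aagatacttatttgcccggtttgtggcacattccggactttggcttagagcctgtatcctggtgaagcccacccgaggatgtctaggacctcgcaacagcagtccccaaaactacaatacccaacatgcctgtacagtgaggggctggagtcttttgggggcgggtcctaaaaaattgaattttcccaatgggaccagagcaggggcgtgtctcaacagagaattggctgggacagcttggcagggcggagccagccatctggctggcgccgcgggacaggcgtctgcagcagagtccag
A match is a description of the letters and not evidence of binding, and a window without a match says nothing of the factor.

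The comparison of AkCk with Wt asks how the contractile genes stood where both Hox clusters were mutant. Of the 10 genes 6 rose (Actg2, Myocd, Acta2, Myh11, Tagln and Myl9) and 4 did not pass the test, at an adjusted p below 0.05 from edgeR's quasi-likelihood test, corrected by the Benjamini-Hochberg method over the 15839 genes tested. Among all genes tested, 6.31% rose and 7.40% fell. No member fell: the count of lower members was 0 by edgeR, 0 at an unadjusted p under 0.05, 0 by DESeq2 and 0 by limma. The median log2 fold change of the 10 was 0.52, and that of all genes tested was -0.01. In 8 of the 10 genes every AkCk library lay above every Wt library, which held for 17.3% of all genes tested, and in 1, Smtn, every AkCk library lay below, which held for 20.8%. These levels are relative to the total of each library. A larger share of smooth muscle cells and more RNA of these genes per cell cannot be told apart in bulk tissue. The study reports very small kidneys at E18.5 in double mutants with Hoxa11 +/-, so a larger share need not mean more cells. The rises depend on the libraries used. Without Wt_37 only Acta2 and Actg2 passed, without Wt_55 only Actg2, and 4 genes passed when AkCk_24 or AkCk_27 was left out (Myl9 and Myocd did not) and 5 when AkCk_29 was (Myl9 did not). Over the 6 fits that each left out a library, the log2 fold changes of the 6 genes lay between 0.36 and 1.63. In a single fit of all 12 libraries, or of the 9 of run1008, 0 of the 10 passed, with fold changes of 0.44 to 1.49 for the same 6 genes on the log2 scale. DESeq2 on the 6 libraries called 8 and limma 4, and an edgeR fit of 11 libraries with AkCh_20 left out, chosen after seeing the data, called 8, and 3224 genes in all. The calls over all genes numbered 2171, and 535 without Wt_37, 633 without Wt_55, 793 without AkCk_24, 1101 without AkCk_27 and 3386 without Wt_30.

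**Figure D1:**
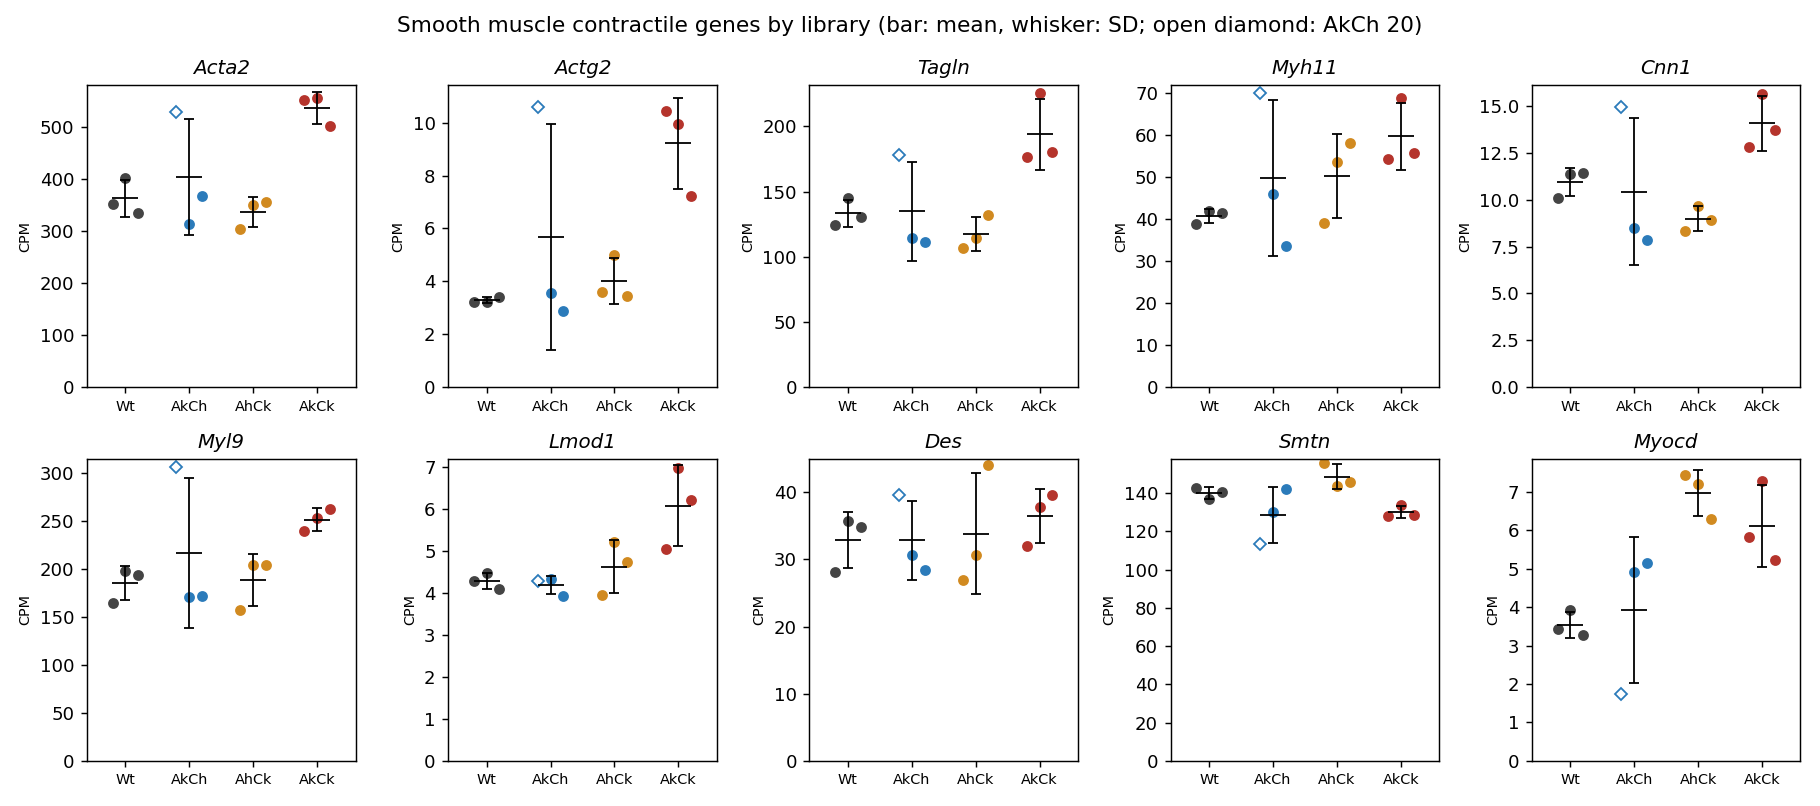
Level of each of the 10 genes in CPM (vertical axis, from 0) in every library of the 4 genotypes (horizontal axis), with the mean as a bar and the SD as a whisker (n = 3), and AkCh_20 as an open diamond. Acta2 reached 502 to 557 CPM in AkCk against 335 to 402 CPM in Wt, and AkCh_20 lay within or above the AkCk range for Acta2, Actg2, Tagln, Myh11, Cnn1 and Myl9.

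Of the filament genes, Acta2 encodes the smooth muscle alpha actin. It stood at 351, 402 and 335 CPM in Wt_30, Wt_37 and Wt_55, at 529.9, 315 and 367 CPM in AkCh_20, AkCh_31 and AkCh_33, at 304, 349 and 356 CPM in AhCk_38, AhCk_110 and AhCk_115, and at 553, 557 and 502 CPM in AkCk_24, AkCk_27 and AkCk_29. The 3 AkCk libraries and AkCh_20 were above 500 CPM, and the other 8 libraries lay together between 304 and 402 CPM. Acta2 rose 1.48-fold in AkCk against Wt (log2 fold change 0.56, SE 0.09, edgeR adjusted p = 0.0109), and the call was lost when Wt_55 was left out.

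Actg2, the gamma actin typical of visceral smooth muscle, had the largest change of the 10. Its level was 3.24, 3.21 and 3.41 CPM in the Wt libraries, 10.6, 3.57 and 2.88 CPM in AkCh_20, AkCh_31 and AkCh_33, 3.58, 4.99 and 3.44 CPM in AhCk_38, AhCk_110 and AhCk_115, and 10.4, 9.96 and 7.23 CPM in AkCk_24, AkCk_27 and AkCk_29. The Wt libraries were nearly level, the AkCk libraries all lay well above them, and within AkCh a single library, AkCh_20, exceeded every AkCk library. In AkCk against Wt Actg2 rose 2.80-fold (log2 fold change 1.49, SE 0.18, edgeR adjusted p = 0.00415), and it passed in all 6 fits that left out a library. On the length scale, Actg2 amounted to 1.30%, 1.12% and 1.44% of the Acta2 RPKM in the Wt libraries and to 2.67%, 2.52% and 2.03% in AkCk_24, AkCk_27 and AkCk_29. The ratio was 2.82%, 1.60% and 1.10% in AkCh_20, AkCh_31 and AkCh_33 and 1.66%, 2.02% and 1.36% in AhCk_38, AhCk_110 and AhCk_115, so that the AkCk libraries lay above all Wt libraries and AkCh_20 above all AkCk libraries.

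Myh11, the smooth muscle myosin heavy chain, stood at 38.9, 42.0 and 41.4 CPM in Wt, at 70.1, 46.0 and 33.6 CPM in AkCh, at 39.1, 53.8 and 58.2 CPM in AhCk and at 54.5, 68.9 and 55.9 CPM in AkCk, with the libraries in the order given for Acta2. AkCk lay above Wt without overlap, while AhCk_115 lay in the AkCk range, AhCk_110 just under it and AhCk_38 in the Wt range. Myh11 rose in AkCk against Wt (log2 fold change 0.55, SE 0.10, edgeR adjusted p = 0.0172), a call lost without Wt_37 and without Wt_55. Myl9, the regulatory light chain of smooth muscle myosin, stood at 165, 197 and 194 CPM in Wt, at 306, 171 and 171 CPM in AkCh, at 157, 204 and 204 CPM in AhCk and at 239, 253 and 262 CPM in AkCk. The AkCk libraries were close together and above Wt and AhCk, and AkCh_20 exceeded them all. Myl9 rose in AkCk against Wt by a log2 fold change of 0.44 (SE 0.09, edgeR adjusted p = 0.0225), but of the 6 fits without a library it passed in 1, that without Wt_30, and it did not pass by limma.

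Among the proteins bound to the filaments, Tagln encodes transgelin (SM22 alpha), an actin-binding protein and early smooth muscle marker. It stood at 124, 145 and 130.3 CPM in Wt, at 178, 114.55 and 111 CPM in AkCh, at 106, 114 and 132 CPM in AhCk and at 176, 225 and 180.3 CPM in AkCk. AkCk lay above Wt and AhCk without overlap, and AkCh_20 lay within the AkCk range. Tagln rose in AkCk against Wt (log2 fold change 0.54, SE 0.11, edgeR adjusted p = 0.0233), and the call was lost without Wt_37, without Wt_55 and by limma. Cnn1, calponin, which binds actin and dampens myosin ATPase activity, stood at 10.1, 11.4 and 11.4 CPM in Wt, at 14.9, 8.51 and 7.84 CPM in AkCh, at 8.34, 9.68 and 8.92 CPM in AhCk and at 12.8, 15.7 and 13.7 CPM in AkCk. All AkCk libraries were above, and all AhCk libraries below, the Wt libraries. The AkCk difference from Wt did not pass by edgeR (log2 fold change 0.36, SE 0.12, adjusted p = 0.0858) and passed by DESeq2.

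Lmod1, leiomodin, a nucleator of actin filaments in smooth muscle, stood at 4.27, 4.47 and 4.08 CPM in Wt, at 4.29, 4.32 and 3.93 CPM in AkCh, at 3.93, 5.20 and 4.73 CPM in AhCk and at 5.04, 6.95 and 6.21 CPM in AkCk. It differed from the genes above in that AkCh_20 lay within the Wt range, and AkCk lay above both Wt and AkCh. The AkCk difference from Wt missed the threshold by edgeR (log2 fold change 0.50, SE 0.17, adjusted p = 0.0830) and passed it by DESeq2. Smtn, smoothelin, a cytoskeletal protein of contractile smooth muscle, stood at 143, 137 and 141 CPM in Wt, at 113, 130.1 and 142 CPM in AkCh, at 156, 144 and 146 CPM in AhCk and at 128, 134 and 129 CPM in AkCk. AkCk lay just below Wt, AhCk just above, and AkCh_20 was the lowest library. Its AkCk log2 fold change against Wt was -0.11 (SE 0.06, edgeR adjusted p = 0.273). Des encodes desmin, the muscle intermediate filament, and ranged from 26.9 CPM (AhCk_38) to 44.0 CPM (AhCk_115) with every pair of groups overlapping, and its AkCk log2 fold change against Wt was 0.15 (SE 0.12, edgeR adjusted p = 0.429).

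Myocd encodes myocardin, the coactivator of serum response factor. It stood at 3.42, 3.92 and 3.27 CPM in Wt_30, Wt_37 and Wt_55, at 1.74, 4.92 and 5.14 CPM in AkCh_20, AkCh_31 and AkCh_33, at 7.43, 7.20 and 6.30 CPM in AhCk_38, AhCk_110 and AhCk_115, and at 5.82, 7.29 and 5.22 CPM in AkCk_24, AkCk_27 and AkCk_29. Every mutant library but AkCh_20 lay above every Wt library, and AkCh_20, where Acta2, Actg2, Myh11 and Myl9 were high, had the lowest Myocd level of the 12. In AkCk against Wt Myocd rose 1.73-fold (log2 fold change 0.79, SE 0.18, edgeR adjusted p = 0.0302), a call lost without Wt_37, Wt_55, AkCk_24 or AkCk_27. Relative to Acta2 on the RPKM scale, Myocd amounted to 0.333% in each Wt library, to 0.834%, 0.705% and 0.605% in AhCk_38, AhCk_110 and AhCk_115, and to 0.360%, 0.447% and 0.355% in AkCk_24, AkCk_27 and AkCk_29. In AkCh_20, AkCh_31 and AkCh_33 the ratio was 0.112%, 0.535% and 0.479%.

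**Figure D2:**
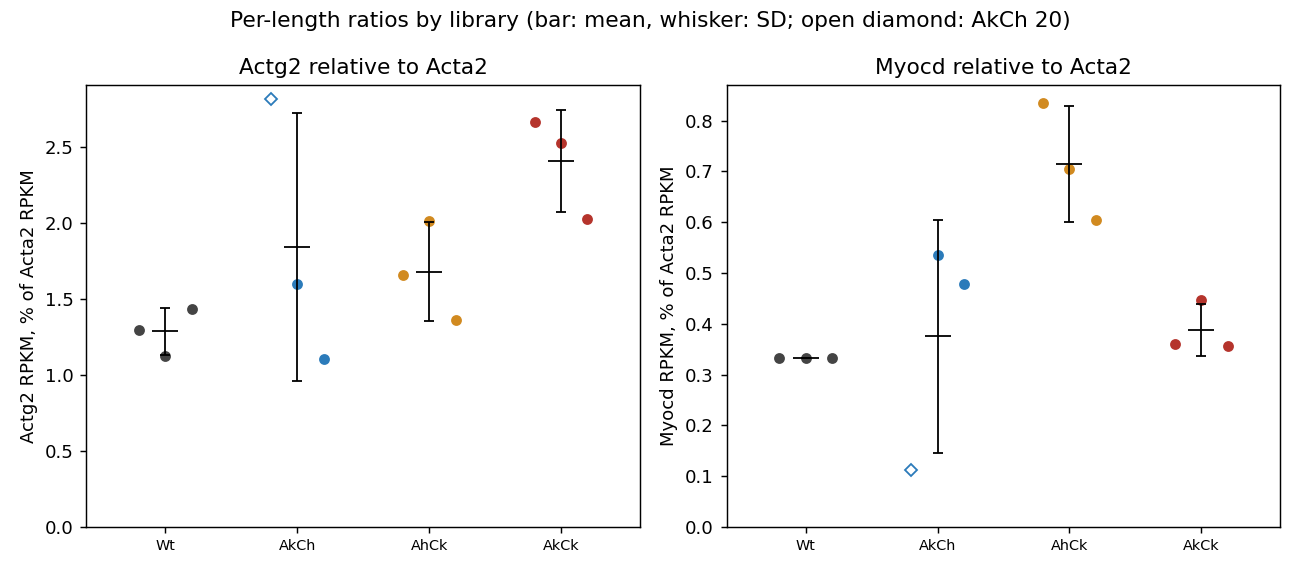
Ratio of Actg2 to Acta2 (left) and of Myocd to Acta2 (right) in RPKM, in percent (vertical axes, from 0), for each library by genotype, with the mean as a bar, the SD as a whisker (n = 3) and AkCh_20 as an open diamond. Actg2 was 1.12% to 1.44% of Acta2 in Wt and 2.03% to 2.67% in AkCk, whereas the Myocd ratio was highest in AhCk, at 0.605% to 0.834%.

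AhCk differs from Wt, by the labels, at both HoxC (homozygous) and HoxA (heterozygous) and in run, and their parts cannot be told apart. The comparison of AhCk with Wt shares the Wt libraries with that of AkCk with Wt. Of the 10 genes 1 rose, Myocd (1.98-fold, log2 fold change 0.99, SE 0.14, edgeR adjusted p = 0.0216), and 9 did not pass. Of the 15902 genes tested 0.836% rose and 1.53% fell. The count of lower members was 0 by edgeR, by DESeq2 and by limma, and 1 at an unadjusted p under 0.05, Cnn1. In 3 of the 10 genes (Actg2, Smtn and Myocd) the AhCk libraries all lay above the Wt libraries and in 1, Cnn1, below, against 11.4% and 15.3% of all genes tested. The other values were log2 fold changes of -0.10 for Acta2 (SE 0.10), -0.17 for Tagln (SE 0.10) and -0.28 for Cnn1 (SE 0.11). They were 0.32 for Myh11 (SE 0.14), 0.30 for Actg2 (SE 0.19), 0.12 for Lmod1 (SE 0.15) and 0.09 for Smtn (SE 0.06). Des was at 0.05 (SE 0.19) and Myl9 at 0.03 (SE 0.12). The median was 0.07 over the 10 and 0.01 over all genes tested. Whether AhCk and AkCk differ in Actg2 or Acta2 was not tested. Myocd did not pass in the fit of all 12 libraries, with or without Xist as a covariate. It no longer passed when Wt_37, Wt_55, AhCk_110 or AhCk_115 was left out, and Myh11 passed too when AhCk_38 was left out. The calls over all genes, 376 with all 6 libraries, numbered 60, 70, 63 and 99 without Wt_37, Wt_55, AhCk_110 and AhCk_115.

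By the labels AkCh differs from Wt at both HoxA (homozygous) and HoxC (heterozygous), whose parts cannot be told apart, and the comparison again shares the Wt libraries. In AkCh against Wt none of the contractile genes was called. The count was 0 of 10 in either direction by edgeR, DESeq2 and limma, and 0 at an unadjusted p under 0.05. Over the 15789 genes tested edgeR called 0 (0% higher and 0% lower), against 360 at an unadjusted p under 0.05, 22 by DESeq2 and 1 by limma. For 0 of the 10 genes did the AkCh and Wt libraries separate, while 3.57% of all genes tested lay wholly above and 4.77% wholly below Wt. The median log2 fold change was 0.09 over the 10 and 0.03 over all genes tested. Without AkCh_20, 1 of the 10 lay wholly above Wt (Myocd) and 2 wholly below (Cnn1 and Tagln), against 16.0% and 16.9% of all genes tested, and 9 of the 10 log2 fold changes were negative, with a median of -0.08 against -0.01. With all 6 libraries Actg2 had the largest log2 fold change, 0.78 (SE 0.50), with AkCh_20 far above the other 2 libraries. Without AkCh_20 its log2 fold change was -0.03 (SE 0.18), that of Acta2 moved from 0.16 to -0.10 and that of Tagln from 0.02 to -0.24, and Cnn1 (-0.43, SE 0.12) and Myocd (0.50, SE 0.16) had the largest values. None of the 10 passed in that fit either: edgeR called 0 of them, 3 had an unadjusted p under 0.05 (Cnn1, Tagln and Myocd), and of the 15967 genes tested 3 (0.0188%) rose and 5 (0.0313%) fell. Of these, 1 that rose and 4 that fell were sex transcripts. AkCh_31 and AkCh_33 both held Xist, and the 3 Wt libraries held Ddx3y. Sex and genotype therefore cannot be told apart in any comparison of AkCh with Wt without AkCh_20. DESeq2 and limma were not run without this library.

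The comparison of AkCk with AkCh concerns, by the labels, homozygous against heterozygous HoxC mutations. By the text of the study the groups differ at Hoxa11 too, and the parts of HoxC and Hoxa11 cannot be told apart. With all 6 libraries edgeR called 0 of the 10 genes, 2 had an unadjusted p under 0.05 (Lmod1 and Tagln), and DESeq2 and limma called 0. Among the 15764 genes tested edgeR called 0 (0% higher and 0% lower), with 1787 at an unadjusted p under 0.05, 554 called by DESeq2 and 1 by limma. All 10 log2 fold changes were positive, from 0.04 for Smtn to 0.72 for Actg2 (SE 0.51), with a median of 0.44 against -0.01 over all genes tested. For 2 genes, Lmod1 and Myocd, every AkCk library lay above every AkCh library, against 9.95% of all genes tested above and 13.1% below. Without AkCh_20, 5 of the 10 rose: Actg2 (log2 fold change 1.53, SE 0.22), Cnn1 (0.81, SE 0.14), Tagln (0.80, SE 0.12), Acta2 (0.68, SE 0.09) and Myl9 (0.58, SE 0.08). In that fit 687 of the 15986 genes tested were called, 2.43% higher and 1.86% lower, and for 9 of the 10 genes both remaining AkCh libraries lay below every AkCk library, against 19.6% of all genes tested. The median was then 0.59 against 0.00 over all genes tested. The lone exception was Smtn, at a log2 fold change of -0.04 (SE 0.07). The fit then rests on 2 AkCh libraries, AkCh_31 and AkCh_33, both with Xist.

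**Figure D3:**
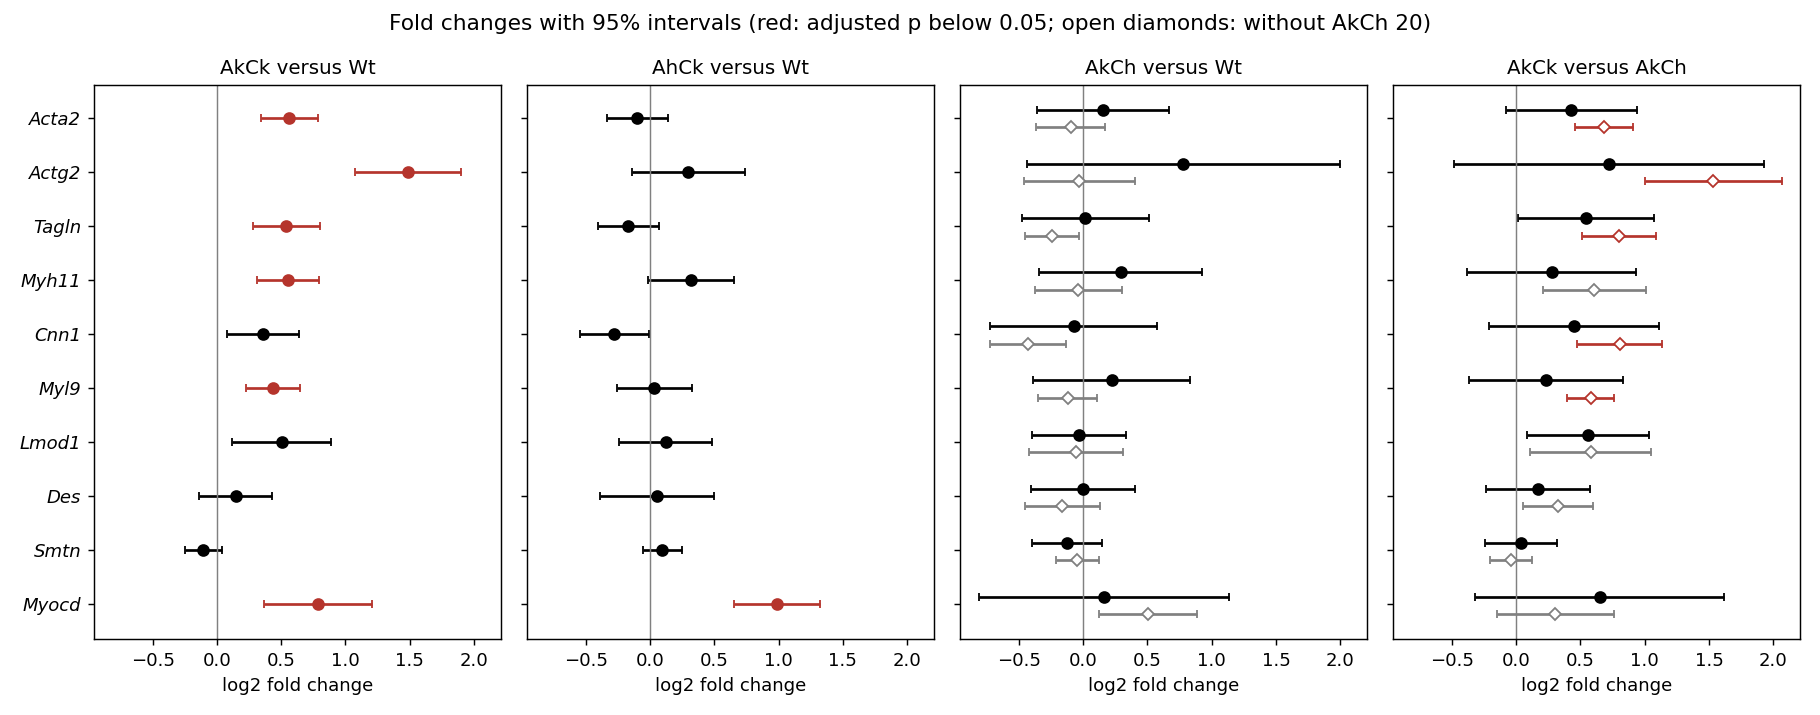
Log2 fold change of each gene (horizontal axis) with its 95% interval in the 4 comparisons, each on 3 libraries a group, in red where the adjusted p is below 0.05, with open diamonds for the fits without AkCh_20. Actg2 had the largest value in AkCk against Wt, 1.49, and in AkCk against AkCh it went from 0.72 to 1.53 when AkCh_20 was left out.

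Summed in RPKM, the 10 genes reached 417, 480.2 and 439.7 RPKM in Wt_30, Wt_37 and Wt_55, 654, 399 and 422 RPKM in AkCh_20, AkCh_31 and AkCh_33, 383, 449.7 and 464 RPKM in AhCk_38, AhCk_110 and AhCk_115, and 604, 649 and 604 RPKM in AkCk_24, AkCk_27 and AkCk_29. With Xist as a covariate in a fit of all 12 libraries 2 genes passed in AkCk against Wt, Acta2 and Actg2.

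Of 14059 genes outside the lists, those whose levels over the 12 libraries ran most like the mean standardized level of the 10 were Cntn4 (Pearson r 0.961), 5430435G22Rik (0.960), Cpz (0.951), Csf1 (0.944), Cd248 (0.941), Pcolce (0.939), Lbh (0.939), Ptrf (0.937), Thra (0.936) and Gpr133 (0.936). Cd248 encodes endosialin of stromal and perivascular cells, Pcolce an enhancer of procollagen processing and Ptrf the caveolar coat protein cavin. Cd248 was at 82.1 ± 6.37 CPM in Wt and 162 ± 16.6 CPM in AkCk (SD, n = 3 each), Pcolce at 119.9 ± 9.19 and 226 ± 26.2 CPM, and Ptrf at 211 ± 11.4 and 321 ± 29.6 CPM. Without AkCh_20 the 10 values of r lay between 0.929 and 0.970. The mean does not stand for every member. With the mean of the other members, r was -0.613 for Smtn and -0.0424 for Myocd, and between 0.592 (Des) and 0.897 (Tagln) for the rest. The points share their libraries and genotypes, and nothing is drawn from the likeness.

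Other genes of the contractile apparatus were read from a list. Of 23 genes for thin filaments, myosin regulation and attachment plaques, 1 rose in AkCk against Wt and 22 did not pass, with a median log2 fold change of 0.09 against -0.01 over all genes tested. DESeq2 called 6 of the 23 higher and limma 1, and 7 were higher and 1 lower at an unadjusted p under 0.05. Of all 15839 genes tested, 6.31% rose and 7.40% fell by edgeR, and 2463 were higher and 2668 lower at an unadjusted p under 0.05. The same background holds for each list of AkCk against Wt below. The riser by edgeR was Pgm5, aciculin of adherens plaques (log2 fold change 0.94, SE 0.11, edgeR adjusted p = 0.00425). Mylk, the myosin light chain kinase, had a log2 fold change of 0.02 (SE 0.11), Tpm1 -0.04 (SE 0.07), Tpm2 -0.05 (SE 0.11), Cald1 0.03 (SE 0.09) and Vcl 0.24 (SE 0.07), none past the threshold. Per library the 23 genes summed to 3613 to 3796 CPM in Wt and 3994 to 4207 CPM in AkCk, with Flna the most abundant. In AhCk against Wt, edgeR and limma called 0 of these 23, and DESeq2 called 3. An unadjusted p under 0.05 was held by 5 of the 23 and by 3349 of all 15902 genes tested.

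Among regulators of contraction, 12 of 13 genes for calcium handling and the cyclic GMP pathway were tested in AkCk against Wt, of which 2 rose, 1 fell and 9 did not pass, with a median log2 fold change of 0.09. Casq2, the calcium-storing calsequestrin, rose with a log2 fold change of 1.19 (SE 0.30, edgeR adjusted p = 0.0387) from 0.933 to 2.14 mean CPM, and Pde5a, the cyclic GMP phosphodiesterase, with 0.43 (SE 0.10, edgeR adjusted p = 0.0281). Gucy1b3, a subunit of the nitric oxide receptor guanylate cyclase, fell (log2 fold change -0.40, SE 0.08, edgeR adjusted p = 0.0177). DESeq2 called 3 higher and 1 lower, and limma 1 higher and 1 lower. Of 13 receptors for contractile agonists 2 rose and 11 did not pass, with a median of 0.35, while DESeq2 called 3 higher and limma 1. The risers were the angiotensin receptor Agtr2 (log2 fold change 0.58, SE 0.11, edgeR adjusted p = 0.0186) and the adrenergic receptor Adra1d (0.97, SE 0.20, edgeR adjusted p = 0.0225). In AhCk against Wt the endothelin receptor Ednrb fell (log2 fold change -0.66, SE 0.11, edgeR adjusted p = 0.0366).

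Srf, the gene of serum response factor, had mean levels of 74.9 CPM in Wt and 75.5 CPM in AkCk and did not pass (log2 fold change 0.01, SE 0.07). Of the 12 genes for serum response factor, its cofactors and antagonists 1 rose and 11 did not pass, with a median of -0.04, while DESeq2 called 2 higher and limma 1. The riser was Klf4, a repressor of smooth muscle genes (log2 fold change 0.64, SE 0.17, edgeR adjusted p = 0.0483). The myocardin-related factors Mkl1 (0.04, SE 0.08) and Mkl2 (-0.08, SE 0.08) did not pass. Of the non-muscle actin, myosin and tropomyosin isoforms 1 of 9 rose, the cytoplasmic gamma actin Actg1, with a log2 fold change of 0.39 (SE 0.08, edgeR adjusted p = 0.0211), while DESeq2 called 2 higher and 1 lower and limma 1 higher, and in AhCk against Wt Actg1 rose with 0.92 (SE 0.08, edgeR adjusted p = 0.00304).

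Of 14 regulators of ureteric mesenchyme and ureter smooth muscle, 13 were tested, of which 6 rose, 1 fell and 6 did not pass in AkCk against Wt, with a median log2 fold change of 0.01. DESeq2 called 6 higher and 2 lower, and limma 2 higher. Tbx18, the transcription factor of undifferentiated ureteric mesenchyme, rose from 2.71 to 8.44 mean CPM (log2 fold change 1.64, SE 0.19, edgeR adjusted p = 0.00394). Hhip and Ptch1, which restrain hedgehog signaling and are its targets, rose with log2 fold changes of 1.32 (SE 0.25, edgeR adjusted p = 0.0171) and 0.61 (SE 0.13, edgeR adjusted p = 0.0261), and the other risers were Tshz3 (0.56), Gata6 (0.46) and Smo (0.31). Id3, an inhibitor of bHLH factors, fell (log2 fold change -0.46, SE 0.11, edgeR adjusted p = 0.0346), and the hedgehog target Gli1 did not pass (-0.06, SE 0.13). Bmp4, the signal for ureter smooth muscle, was at 0.01 (SE 0.10).

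Marker lists of other cell types were measured beside these results. Of the 12 stromal fibroblast and matrix genes all 12 rose in AkCk against Wt, with a median log2 fold change of 1.69, and several of them, Postn, Lum, Dcn, Lox, Eln and the collagens, are genes the study picked from these libraries, so the list is no independent sign of direction. Their summed level was 4491, 4400.2 and 4211 CPM in Wt_30, Wt_37 and Wt_55, 5935, 6131 and 4643 CPM in AkCh_20, AkCh_31 and AkCh_33, 5429.9, 6799 and 7598 CPM in AhCk_38, AhCk_110 and AhCk_115, and 12122, 14706 and 13014 CPM in AkCk_24, AkCk_27 and AkCk_29, with Col3a1 the most abundant. AkCk exceeded every other library in this sum, while AkCh_20, high for Acta2 and Actg2, lay between the other AkCh libraries. The single genes did not all follow the sum. AkCh_20 was the highest AkCh library for Col1a1, Col1a2, Dcn, Postn, Mfap5, Fbln2, Eln and Foxd1. It lay between the others for Col3a1 and Lum and was the lowest for Pdgfra and Lox. Foxd1 in AkCh_20, at 67.6 CPM, exceeded every AkCk library. In AhCk against Wt 3 of the 12 rose, Lum (log2 fold change 1.08, SE 0.15), Postn (0.69, SE 0.12) and Col3a1 (0.52, SE 0.09). Of all genes tested there, 0.836% rose by edgeR. By DESeq2 11 of the 12 rose in AhCk, and by limma 0 passed. At an unadjusted p under 0.05, 11 of the 12 were higher, as were 1571 of all 15902 genes tested. In AkCh against Wt edgeR and limma called 0, with 4 at an unadjusted p under 0.05 and 1 by DESeq2, and without AkCh_20 edgeR called 0, with 7 at an unadjusted p under 0.05.

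The lists for vessel walls gave smaller values. Of 10 pericyte, mural and renin cell genes, 1 fell (Mcam, log2 fold change -0.27, SE 0.07, edgeR adjusted p = 0.0368) and 9 did not pass in AkCk against Wt. The count of higher genes was 0 by edgeR, 2 by DESeq2, 0 by limma and 2 at an unadjusted p under 0.05. The count of lower genes was 1 by DESeq2, 0 by limma and 1 at an unadjusted p under 0.05. Their median was 0.21, and the list summed to 991 to 1166 CPM in Wt and 1114 to 1457 CPM in AkCk, with Ren1 the most abundant. The 8 endothelial genes summed to 992 to 1076 CPM in Wt and 1180.1 to 1233 CPM in AkCk, led by Cdh5, and by edgeR 1 of the 8 rose, Eng (log2 fold change 0.46, SE 0.06, edgeR adjusted p = 0.00639), while DESeq2 called 3 and limma 1. No gene of the stromal, mural and endothelial lists was at 0 in all libraries, and their part in the rise of the contractile genes was not tested.

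Striated muscle genes were scarce. The 8 cardiac genes summed to 3.29, 4.84 and 4.65 CPM in Wt_30, Wt_37 and Wt_55, to 10.5, 4.17 and 3.98 CPM in AkCh_20, AkCh_31 and AkCh_33, to 4.58, 6.22 and 6.59 CPM in AhCk_38, AhCk_110 and AhCk_115, and to 10.0, 11.0 and 7.09 CPM in AkCk_24, AkCk_27 and AkCk_29. By mean CPM Tnni3 led in Wt, and Actc1, the cardiac actin that is also made in some smooth muscle, led in the 3 mutant groups. Of the 7 tested 2 rose in AkCk against Wt, Actc1 (log2 fold change 2.39, SE 0.34, edgeR adjusted p = 0.00704) and Myh7 (2.08, SE 0.42, edgeR adjusted p = 0.0202), while DESeq2 called 1 and limma 2. The 14 skeletal muscle genes summed to 7.56 to 14.7 CPM in Wt and 10.9 to 19.7 CPM in AkCk, led by Tnni1 in Wt and by Acta1 in AkCk by mean CPM. Of the 13 tested 2 rose, Myh3 (log2 fold change 2.41, SE 0.47, edgeR adjusted p = 0.0194) and Myog (3.05, SE 0.62, edgeR adjusted p = 0.0214), as many as by DESeq2 and by limma. Myog was near the floor in Wt_30, Wt_37 and Wt_55, at 0.106, 0.0461 and 0.148 CPM, where a count of 0 in Wt_30 allows up to 0.0796 CPM. In AkCk_24, AkCk_27 and AkCk_29 it was at 1.44, 0.662 and 0.440 CPM. The cardiac sum was high in the same 4 libraries that were high for Acta2, and its part in that was not tested. Actc1 was at 4.83 CPM in AkCh_20, at 4.96, 4.84 and 3.24 CPM in AkCk_24, AkCk_27 and AkCk_29, and at most 2.49 CPM elsewhere. The other cardiac genes did not all follow it, and Tnni3 was highest in Wt_37, at 1.96 CPM. The cardiac total of at most 11.0 CPM compares with 1201 to 1315 CPM for the 10 contractile genes in AkCk.

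Markers of tissues next to the kidney were measured too. The 8 urothelial genes, led by Upk3a, summed to 56.5, 76.2 and 68.9 CPM in Wt_30, Wt_37 and Wt_55, to 86.3, 68.5 and 51.5 CPM in AkCh_20, AkCh_31 and AkCh_33, to 50.1, 74.8 and 33.4 CPM in AhCk_38, AhCk_110 and AhCk_115, and to 40.6, 117 and 77.6 CPM in AkCk_24, AkCk_27 and AkCk_29. The lowest of the AkCk libraries, AkCk_24, lay below every Wt library in this list. In AkCk against Wt 2 of the 8 rose, Krt20 (log2 fold change 2.23, SE 0.43, edgeR adjusted p = 0.0183) and Upk3b (1.61, SE 0.34, edgeR adjusted p = 0.0249), and 6 did not pass. Of those 6, Upk1a had a log2 fold change of -1.16 (SE 0.41) with every AkCk library below every Wt library, and Upk2 had -0.88 (SE 0.53). DESeq2 called 2 higher and 1 lower, and limma 1 higher. Of 10 gut and adrenal genes 5 were tested and edgeR and limma called 0, with 2 at an unadjusted p under 0.05 and 1 by DESeq2. Their sum was 43.0 to 98.0 CPM in Wt and 85.3 to 102 CPM in AkCk, led by Vil1, which kidney tubules also express. Fabp2 was at 0 in all libraries and Cdx2 in 11 of the 12, where a count of 0 allows up to 0.116 TMM-scaled CPM in the shallowest library, by counting error only. The adrenal genes Th and Dbh were at 1.37 and 1.59 CPM in AkCk_29 and at most 0.713 and 0.255 CPM in the other 11 libraries. Of 11 kidney cell type genes 1 rose, 1 fell and 9 did not pass in AkCk against Wt. Their log2 fold changes were positive for 7 and negative for 4, with a median of 0.45. DESeq2 called 2 higher and 1 lower, and limma 0. The gene that fell by edgeR was the nephron progenitor gene Cited1, which the study also picked from these libraries (log2 fold change -1.45, SE 0.34, edgeR adjusted p = 0.0327).

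**Figure D4:**
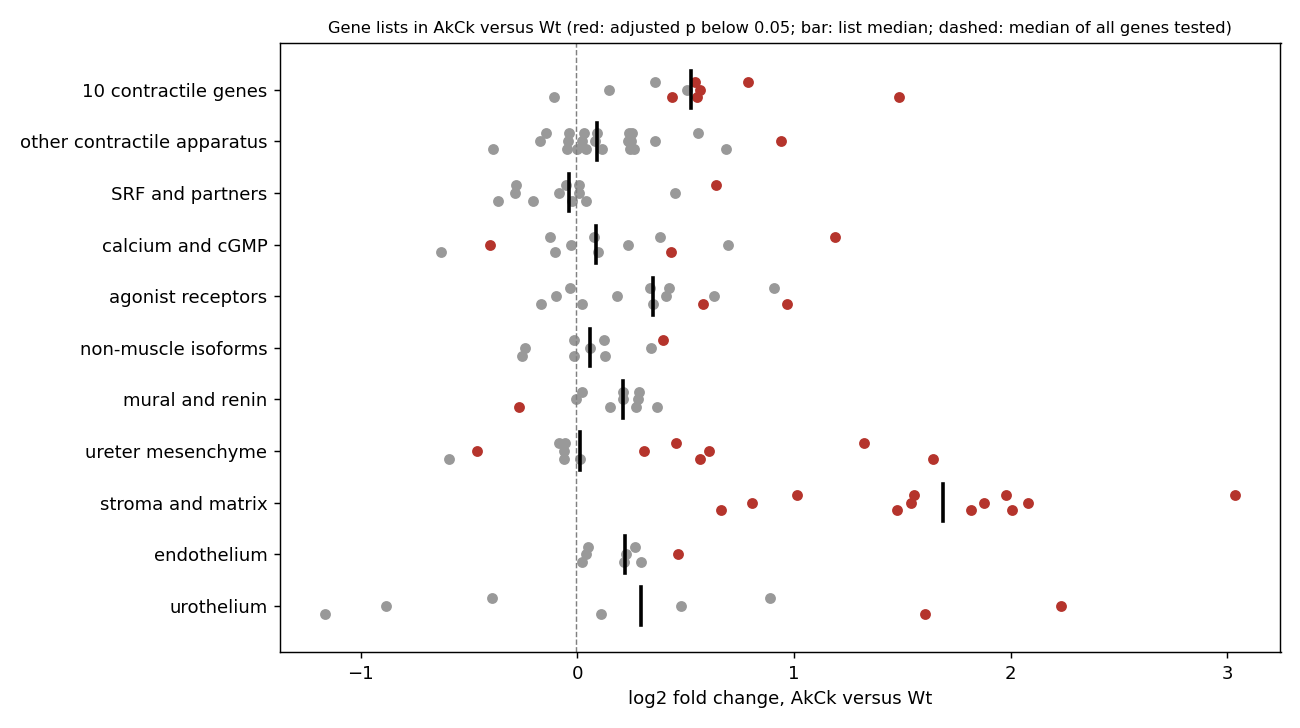
Log2 fold change in AkCk against Wt (horizontal axis) of every tested gene in 11 gene lists (vertical axis), each point a gene, red where the adjusted p is below 0.05, with a bar at the median of the list and a dashed line at the median of all genes tested, -0.01. The 10 contractile genes had a median of 0.52, the other contractile apparatus 0.09 and the stroma and matrix list 1.69.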

How the data were processed

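RNA was measured in 12 libraries of E18.5 whole mouse kidneys by TruSeq paired-end sequencing. The authors aligned the reads to mm10 in Strand NGS, removed reads aligning to several places, counted them on UCSC gene models and deposited an expected count for each gene and library (36186 genes, 41.0% of values not whole). The authors also deposited normalized log2 values, centered on each gene's median over the 12 libraries. Symbols listed more than once numbered 92, and none was a gene named here.

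Expected counts were rounded to whole numbers. Genes were kept by filterByExpr (minimum count 10, minimum total 15), scaled by TMM factors and tested with edgeR 4.0.16 quasi-likelihood fits in R 4.3.3 on the 6 libraries of the groups compared, with a Benjamini-Hochberg adjusted p below 0.05 called. The procedure was tested on simulated data, and no result of that is given or used here. AkCk, AhCk and AkCh were each compared with Wt, and AkCk with AkCh. Alternatives were DESeq2 1.42.0, limma 3.58.1 on the log2 values, RLE factors, library size only, no filter beyond 1 count, fits of 12, 11 or 9 libraries, Xist as a covariate, and leaving out each library. Levels are TMM-scaled CPM. RPKM used exon lengths of GENCODE M21, known for 32084 genes. Likeness used log2 CPM (prior count 0.5) of genes with a mean of at least 1 CPM. Tables were made with Python 3.11.15 and pandas 2.3.3. A count of 0 allows 3 counts.

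The members and lists were chosen with earlier results of these data known. Named genes were the members, the targeted Hox genes and their HoxD paralogs, the 10 genes most like the members, and genes of the lists that passed the threshold, had an extreme change in their list or bore on a label. Others from the lists were named for their role after their values were seen.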

Additional observations from a re-analysis of the deposited data

How the results depend on the processing

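Members called lower numbered 0 under every setting in the 4 comparisons. In AkCk against Wt the 6 members called higher became 0 in the fit of all 12 libraries, 0 in that of the 9 libraries of run1008 and 2 with Xist as a covariate, with a range of 1 to 6 when each library was left out. Its 2171 called genes became 3380 by DESeq2, 1190 with 12 libraries, 690 with 9, 1009 with Xist, 1215 by limma on the deposited log2 values and 3224 with 11 libraries, and 535 to 3386 with a library left out. In AhCk against Wt the 1 member called higher became 0 with 12 libraries and 0 with Xist, with 0 to 2 when a library was left out. Its 376 called genes became 1318 by DESeq2, 149 with 12 libraries, 134 with Xist, 158 by limma, 976 with 11 libraries (AkCh_20 left out, a fit chosen after seeing the data) and 60 to 549 with a library left out. In AkCh against Wt the 0 called genes became 22 by DESeq2, 2 with 12 libraries, 1 by limma, 4 with 11 libraries and 0 to 8 with a library left out. In AkCk against AkCh the 0 members called higher became 5 with 11 libraries and 0 to 5 with a library left out, and the 0 called genes became 554 by DESeq2, 1 with every gene of at least 1 count, 540 with 12 libraries, 181 with 9, 651 with Xist, 1 by limma, 1203 with 11 and 0 to 687 with a library left out. The fits of 12 and 9 libraries take their spread from AkCh_20 too, and beyond that the cause was not tested.

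No member past the threshold changed direction. The log2 fold changes that changed sign were not past it. In AkCh against Wt they were Tagln at -0.078 with library size only and -0.015 by limma, Cnn1 at 0.032, Des at 0.085 and Myocd at -0.27 with Xist, and Myocd at -0.00036 by limma. With 11 libraries Acta2 was at -0.088, Actg2 at -0.025, Tagln at -0.23, Myh11 at -0.033 and Myl9 at -0.11 there. With a library left out the ranges were -0.10 to 0.31 for Acta2, -0.030 to 1.10 for Actg2, -0.24 to 0.14 for Tagln, -0.038 to 0.51 for Myh11, -0.43 to 0.10 for Cnn1, -0.12 to 0.37 for Myl9, -0.066 to 0.0091 for Lmod1, -0.16 to 0.092 for Des and -0.075 to 0.50 for Myocd. In AhCk against Wt they were -0.054 to 0.14 for Myl9 and -0.18 to 0.18 for Des. In AkCk against AkCh Smtn was at -0.071 with 11 libraries and -0.042 to 0.10 with a library left out. The cause was not tested.

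No scaling moved the median of all genes tested by over 0.1 on the log2 scale. No paired analysis was possible because the groups share no replicate numbers. The fit of the 9 libraries of run1008 could not be made for AhCk. The depth behind the scarcest members is 45 to 352 counts per library for Myocd and 109 to 400 for Actg2, with 3 libraries a group.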
